A study of Mus musculus with 12 samples.

Results

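The melanocortin and endothelin receptors of pigment cells, Mc1r and Ednrb, were examined together with the cAMP-CREB genes downstream of them in mouse pigment cell lines given SX-682, an inhibitor of the chemokine receptors CXCR1 and CXCR2. The 10 genes were Mc1r, Ednrb, Creb1, Crem, Crtc2, Pde4b, Pde4d, Ppargc1a, Ppargc1b and Nr4a1, taken by symbol from the 34513 genes of the deposited count table, where each has 1 row. RNA was sequenced from cultures of the MelanA, B16F0 and B16F10 lines, untreated or given SX-682, and each of these 6 groups had 2 libraries. MelanA is a nontumorigenic mouse melanocyte line, and B16F0 and B16F10 are tumorigenic lines of the B16 melanoma, of which B16F10 is the metastatic one. No group carried an engineered allele according to the labels, the controls are labelled as having no treatment, and neither a dose nor a time of SX-682 is given there for these cultures. The comparisons asked how the level of each gene differed between the untreated lines and how SX-682 changed it within each line.

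MC1R, a receptor coupled to the stimulatory G protein, raises cAMP in melanocytes when it binds melanocyte-stimulating hormone, a peptide cut from the Pomc product. Protein kinase A then phosphorylates CREB1, the CRTC coactivators enter the nucleus, and transcription of Mitf and of immediate targets such as Crem, Nr4a1 and Ppargc1a can follow. EDNRB, the receptor that binds endothelin-3 in melanoblasts, signals mainly through calcium and protein kinase C, and is needed for melanocyte development. PDE4B and PDE4D hydrolyse cAMP and limit the signal, CREM includes short repressor forms that act as feedback, and PGC-1α and PGC-1β (Ppargc1a and Ppargc1b) are coactivators of mitochondrial genes that also act on Mitf in melanocytes.

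Promoter sequence is shown for Mc1r, which had the widest range of level between lines, and for Nr4a1 and Ppargc1a, which had the widest ranges of change with SX-682. These 3 genes were picked for display after their values were seen. Each line holds the 250 bases before the RefSeq transcription start, on build GRCm38.p6, read 5′ to 3′ on the strand of the gene. Capitals mark TGACG, the core of a cAMP response element, which reads CGTCA on the other strand, and CATGTG, an E-box of the kind that MITF binds, which reads CACATG on the other strand.
Mc1r, chr8:123406832-123407081, plus strand: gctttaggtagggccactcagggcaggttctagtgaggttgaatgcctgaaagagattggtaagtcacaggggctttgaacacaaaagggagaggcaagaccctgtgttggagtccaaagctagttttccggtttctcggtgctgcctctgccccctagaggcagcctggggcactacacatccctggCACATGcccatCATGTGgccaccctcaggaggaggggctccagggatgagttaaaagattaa
Nr4a1, chr15:101266596-101266845, plus strand: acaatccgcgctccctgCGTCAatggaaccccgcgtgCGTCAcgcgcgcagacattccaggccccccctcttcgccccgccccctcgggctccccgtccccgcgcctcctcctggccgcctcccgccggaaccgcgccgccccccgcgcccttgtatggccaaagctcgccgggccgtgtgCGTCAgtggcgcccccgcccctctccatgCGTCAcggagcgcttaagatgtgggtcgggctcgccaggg
Ppargc1a, chr5:51567726-51567975, minus strand: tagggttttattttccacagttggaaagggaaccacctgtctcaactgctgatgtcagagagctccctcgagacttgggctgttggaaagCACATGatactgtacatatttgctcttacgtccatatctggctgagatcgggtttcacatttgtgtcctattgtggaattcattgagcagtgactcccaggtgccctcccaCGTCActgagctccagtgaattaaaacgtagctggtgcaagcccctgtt
The Nr4a1 window held 4 copies of TGACG, beginning 233, 213, 69 and 40 bases before the start, and 0.231% of the 32851 promoter windows of 300 bases in the RefSeq table held 4 or more. The Mc1r window held 2 copies of CATGTG, 62 and 51 bases before the start, against 2.08% of windows with 2 or more, and no TGACG. That of Ppargc1a held TGACG 49 bases and CATGTG 160 bases before the start, and these motifs occur in 20.8% and 14.2% of all windows. Of the other members, Ednrb, Creb1, Pde4b and Pde4d had a window searched, Ednrb with TGACG 203 bases before its start and Creb1 with neither motif. Crem, Crtc2 and Ppargc1b were not searched. Among the 4 windows of Pde4b, the first held TGACG 34 bases before its start and the third held CATGTG 45 bases into the transcript, while the window of Pde4d held CATGTG 122 bases before the start. The palindrome TGACGTCA, found in 1.79% of windows, was in none of the 10 windows searched. The shares are over all windows and were not matched to the base composition of each promoter. A match is a stretch of letters and was not measured as a binding site.

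Library totals ran from 48876982 to 85322092 counts. Levels are given as CPM, which are counts scaled by the size of the library, and the floor used for detection, 3 counts, was 0.033 to 0.0623 CPM. The libraries of a group differed by more than sampling noise, and all 12 were counted as separate samples, although the labels do not say that they came from separate cultures, so p-values measure only the spread between these samples. Their coefficient of variation was 2.78%, so that even slight changes can pass the test. All adjusted p-values come from edgeR's quasi-likelihood test with Benjamini-Hochberg adjustment over the 18338 genes that passed its expression filter, and a change was called at an adjusted p below 0.05. An exact permutation of 2 libraries against 2 cannot give a two-sided p below 0.333. The 8 melanocytic markers summed to 1344 to 1374 CPM in MelanA controls, 18580 to 18670 CPM in B16F0 controls and 24440 to 24470 CPM in B16F10 controls. MelanA controls had Sox10 at 655 and 685 CPM and Dct at 358 and 351 CPM. They also had Mlana at 114 and 119, Tyrp1 at 105 and 108 and Mitf at 103 and 101 CPM. Tyrosinase (Tyr) was at only 0.892 and 0.760 CPM there, Pmel at 7.53 and 8.70 CPM and Kit at 0.127 and 0.0440 CPM. Kit was at 0 in both B16F10 controls. The label of MelanA as a melanocyte line was therefore met by Sox10, Dct, Mlana, Tyrp1 and Mitf but not by the level of Tyr, Pmel or Kit. Markers of fibroblasts summed to 53.5 to 53.8 CPM in MelanA controls, 15.9 to 16.6 CPM in B16F0 controls and 8.42 to 9.72 CPM in B16F10 controls. Most of the MelanA sum was Col1a1, at 45.7 and 47.1 CPM, and of the 4 markers 2 were higher and 2 lower in B16F0 than in MelanA, and 1 higher and 3 lower in B16F10. The part of these markers in the differences between lines was not tested.

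In untreated cells, 9 of the 10 genes passed the expression filter, Ednrb being the exception. B16F0 had 4 of the 9 higher than MelanA (Mc1r, Crem, Pde4b and Ppargc1a), where 35.3% of all genes tested were higher, and 3 lower (Creb1, Pde4d and Nr4a1), where 40.6% were lower. B16F10 had 6 higher than MelanA, the same 4 with Creb1 and Ppargc1b, and 3 lower (Crtc2, Pde4d and Nr4a1), against 33.4% and 40.8% of all genes. B16F10 against B16F0 gave 5 higher (Creb1, Pde4b, Ppargc1a, Ppargc1b and Nr4a1) and 4 lower (Mc1r, Crem, Crtc2 and Pde4d), against 30.8% and 31.2%. These comparisons share their control libraries. The median difference of the 9 genes was -0.06, 0.31 and 0.30 on the log2 scale in the 3 comparisons, beside -0.06, -0.10 and -0.00 for all genes tested. In bulk RNA, fewer cells of a type and less RNA per cell cannot be told apart.

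Scaled by the length of their exons, the most abundant member in MelanA controls was Nr4a1 at 52.4 ± 1.57 CPM per kb (SD, n = 2), followed by Crtc2 at 10.9 ± 0.0243, Creb1 at 5.56 ± 0.0326 and Ppargc1a at 4.33 ± 0.0768 CPM per kb. Mc1r was next to last there, at 0.893 ± 0.124 CPM per kb, above Ednrb. In both B16 lines Mc1r came first, at 78.0 ± 0.0550 CPM per kb in B16F0 and 60.9 ± 0.971 in B16F10 controls, and Nr4a1 second at 16.6 ± 0.135 and 24.3 ± 0.325. Crtc2 at 10.4 ± 0.217 CPM per kb stood above Ppargc1a at 9.31 ± 0.0868 in B16F0 controls, and this order was the other way round in B16F10 controls, with Ppargc1a at 12.6 ± 0.428 and Crtc2 at 7.85 ± 0.523 CPM per kb.

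**Figure D1:**
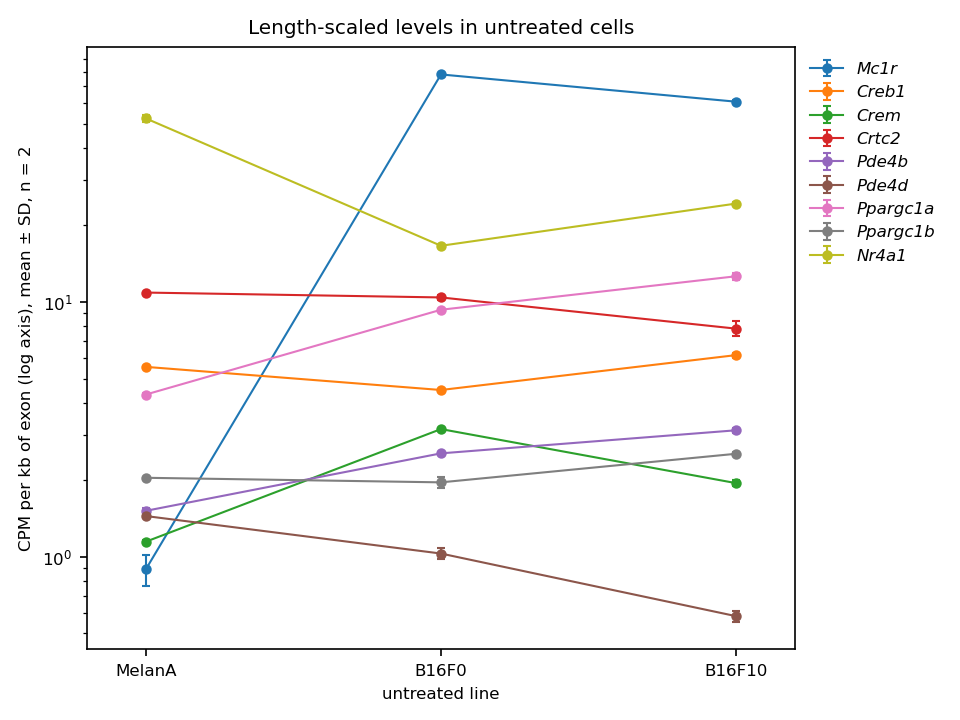
Mean level of 9 genes in untreated cells of each line, in CPM per kb of exon on a log axis, with bars for the SD of 2 libraries. Mc1r runs from 0.893 CPM per kb in MelanA to 78.0 in B16F0 and 60.9 in B16F10, while Nr4a1 is highest in MelanA at 52.4 and Pde4d is lowest in B16F10 at 0.584. Ednrb is not drawn because it is at 0 in B16F10.

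With SX-682, MelanA had 4 of the 9 genes raised (Pde4d, Ppargc1a, Ppargc1b and Nr4a1), where 23.4% of all genes were raised, and 0 lowered, where 24.7% were lowered. At an unadjusted p below 0.05 the number lowered in MelanA was also 0, and DESeq2 likewise called 0. In B16F0, 2 rose (Crtc2 and Pde4d) and 5 fell (Mc1r, Crem, Ppargc1a, Ppargc1b and Nr4a1), against 25.1% and 25.0% of all genes. The number raised there was 1 without B16F0 control replicate 2 or SX-682 replicate 2. In B16F10, 4 rose (Creb1, Crtc2, Pde4d and Ppargc1a) and 4 fell (Mc1r, Crem, Pde4b and Nr4a1), against 25.5% and 25.3%. The median change of the 9 genes was 0.13, -0.12 and -0.13 on the log2 scale in MelanA, B16F0 and B16F10, beside 0 for all genes in each line. Only Pde4d, 1 of 9, rose in all 3 lines, as did 11.3% of all genes tested.

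**Figure D2:**
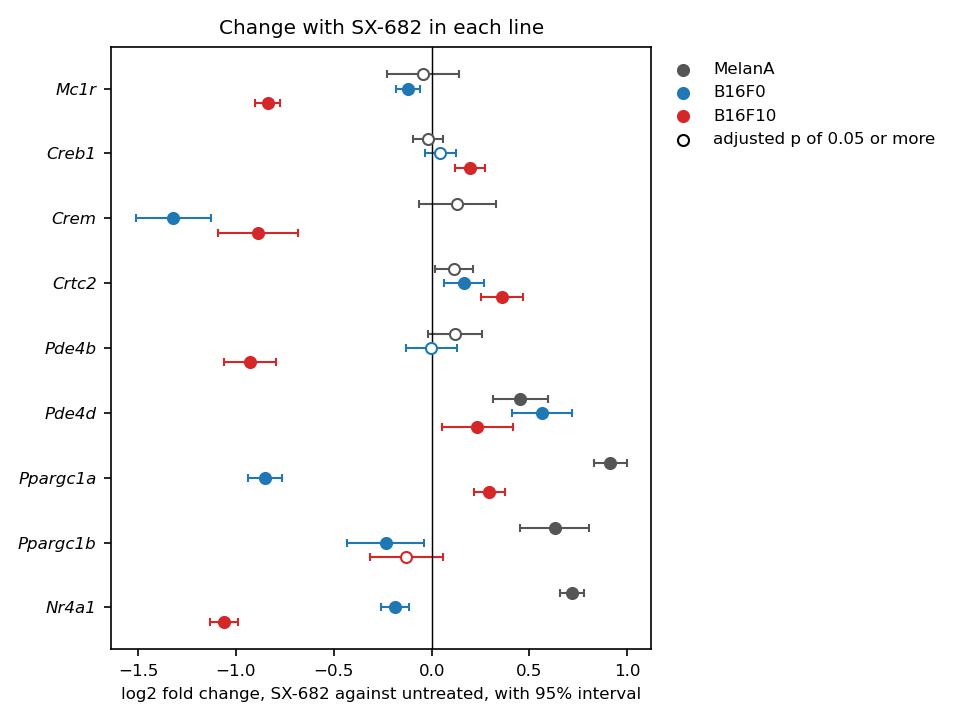
Log2 fold change of 9 genes with SX-682 against untreated cells of the same line, with 95% intervals, in MelanA (grey), B16F0 (blue) and B16F10 (red), with open points where the adjusted p was 0.05 or more. Nr4a1 runs from 0.72 in MelanA to -1.06 in B16F10, Ppargc1a from 0.91 in MelanA to -0.85 in B16F0, and Pde4d lies above 0 in all 3 lines.

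The size of the change itself was compared between lines. An F-test over the 3 lines found that it differed for 8 of the 9 genes, all but Pde4d (adjusted p = 0.0559), and for 47.4% of all genes tested. Between B16F0 and MelanA the change differed for 4 genes (Crem, Ppargc1a, Ppargc1b and Nr4a1), against 34.4% of all genes. Between B16F10 and MelanA it differed for 8, all but Pde4d, against 33.8%, and between B16F10 and B16F0 for 8, all but Ppargc1b, against 30.3%. The last count fell to 5 without B16F0 control replicate 1, without B16F0 SX-682 replicate 2 or without B16F10 control replicate 1, where calls of Creb1, Crem, Crtc2 or Pde4d were lost. The ranges of the change over the lines were widest for Nr4a1 and Ppargc1a, at 1.78 and 1.76 on the log2 scale, and narrowest for Creb1 and Crtc2, at 0.21 and 0.25.

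**Figure D3:**
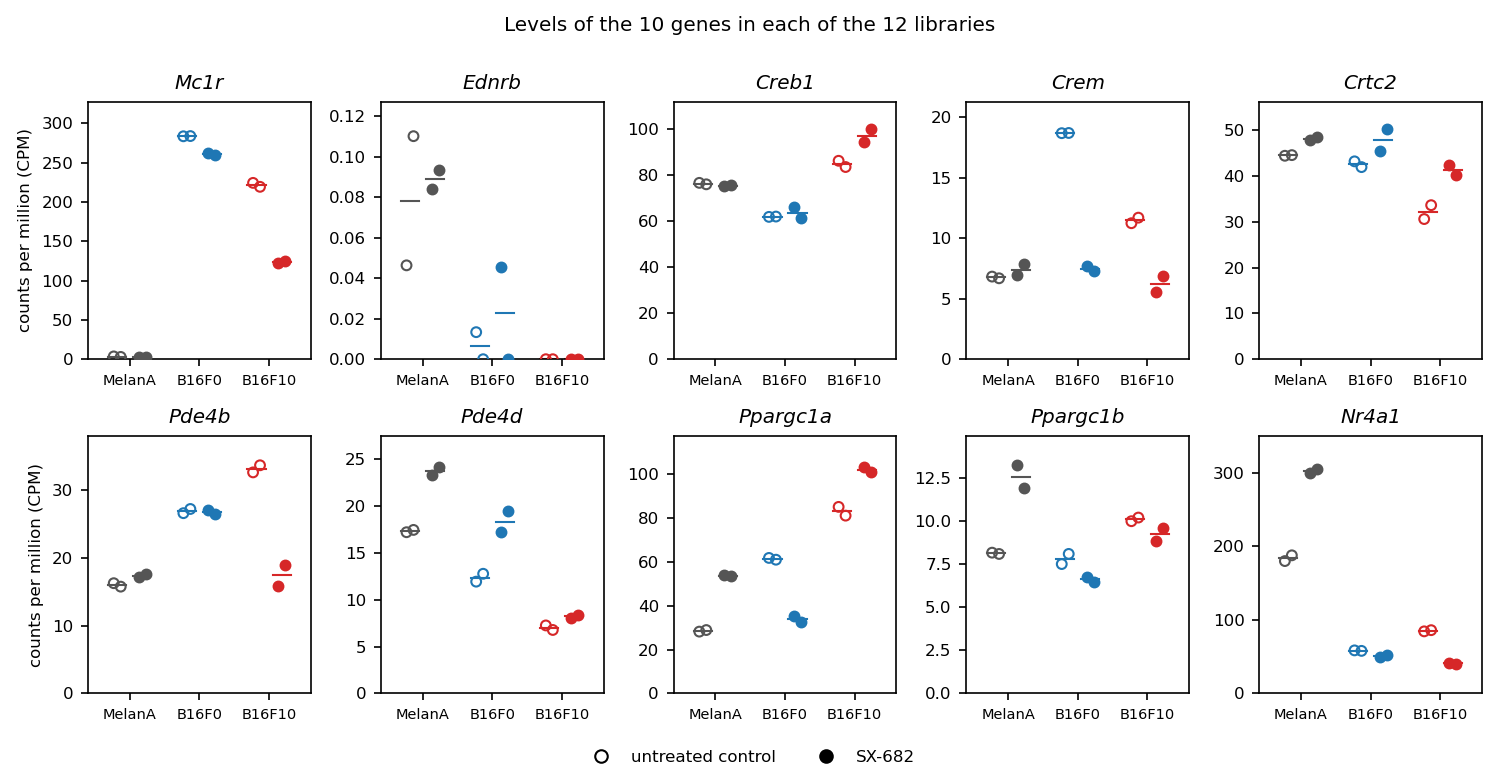
CPM of each of the 10 genes in each of the 12 libraries, 1 panel per gene with its own axis from 0, with open circles for untreated and filled circles for SX-682 libraries and a line at the mean of 2 libraries. Crem falls with SX-682 in both B16 lines to 7.46 and 6.20 CPM, close to the 6.75 CPM of untreated MelanA, and Ednrb is at most 0.110 CPM in every library.

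Mc1r, the melanocortin receptor (ENSMUSG00000074037.3, chr8:123407107-123410744, plus strand), was low in untreated MelanA cells, at 3.57 and 2.93 CPM. It stood at 283 and 284 CPM in untreated B16F0 and at 224 and 219 CPM in untreated B16F10 cells. The B16F0 level was 87.5-fold that of MelanA (log2 difference 6.45 ± 0.048 SE, adjusted p = 4.89e-38), and the B16F10 level 68.4-fold (6.10 ± 0.048, adjusted p = 2.56e-37). B16F10 cells had 78.2% of the B16F0 level, a difference of -0.36 ± 0.030 that passed the test (adjusted p = 1.46e-11). No library of MelanA overlapped with any of the B16 lines, and the libraries of a group lay close together.

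SX-682 lowered Mc1r in both melanoma lines and by unlike amounts. B16F10 cells with SX-682 had 123 and 125 CPM, or 55.9% of the untreated level (log2 fold change -0.84 ± 0.032, adjusted p = 1.68e-19). B16F0 cells with SX-682 had 262 and 259 CPM, or 91.9% of the untreated level (-0.12 ± 0.030, adjusted p = 0.00109). The fall in B16F10 was the larger, with a difference of -0.72 ± 0.044 from that in B16F0 (adjusted p = 1.61e-13). MelanA with SX-682 had 3.31 and 2.98 CPM, within the range of its controls, and its change of -0.04 had a 95% interval of -0.23 to 0.14. The change in B16F0 did not differ detectably from that in MelanA (difference -0.08, interval -0.27 to 0.12, adjusted p = 0.593). Exons of Mc1r share 653 bases, 17.9% of their length, with Gm38092 on the opposite strand, for which no count was available. It is not stated whether the counting used strand, so reads in the shared bases cannot be told apart.

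Ednrb, the endothelin receptor (ENSMUSG00000022122.15, chr14:103814625-103844402, minus strand), was near the detection floor in every library. It had 4 and 10 counts in MelanA controls and 6 and 7 counts in MelanA with SX-682. B16F0 had 1 and 0 counts untreated and 3 and 0 with SX-682, and all 4 B16F10 libraries had 0. MelanA cells were the highest, and the libraries of no B16 group reached them. The margin was slight, with 0.0463 CPM in MelanA control replicate 1 and 0.0455 CPM in B16F0 SX-682 replicate 1. Over the group, the MelanA controls held 0.0790 CPM, at least 3.28-fold higher than the B16F10 controls at a floor of 3 counts over the group. Against the single count of the B16F0 controls, the ratio was 11.2 with an exact 95% interval of 1.71 to 475, which covers counting error only. The ratio of SX-682 to control in MelanA was 1.12, with an interval of 0.486 to 2.58, so a change with SX-682 was not detectable at this depth. When the test was run without the expression filter, Ednrb passed between the untreated B16F10 and MelanA cells (adjusted p = 0.0478) and did not between B16F0 and MelanA (adjusted p = 0.156).

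The ligands of these receptors were scarce in the cultures. Pomc had 1.25 and 1.27 CPM in MelanA, 2.04 and 2.22 in B16F0 and 1.03 and 1.11 in B16F10 controls, and rose with SX-682 in all 3 lines, by 0.63, 0.52 and 1.301 on the log2 scale (adjusted p = 0.00855, 0.0221 and 3.26e-06). Edn1, encoding endothelin-1, was highest in B16F10 controls at 0.298 and 0.313 CPM, and Edn3 had counts in 1 MelanA control library only, at 0.0463 CPM. Ednra, the other endothelin receptor, had 0.174 and 0.165 CPM in MelanA controls and 0 in all 8 B16 libraries. Ece1, which cleaves the endothelin precursors, had 71.5 and 72.4 CPM in MelanA controls and 0.364 to 0.610 CPM in controls of the B16 lines. Asip, the MC1R antagonist, was not analysed here. Of the list of 15 ligands, antagonists and receptor partners, 7 were tested, and with SX-682 1 rose and 2 fell in MelanA, 2 rose and 1 fell in B16F0, and 1 rose and 2 fell in B16F10, with median changes of -0.06, 0.15 and -0.13 over those above the floor. Of all genes tested, 23.4% rose and 24.7% fell in MelanA, 25.1% and 25.0% in B16F0 and 25.5% and 25.3% in B16F10. The same shares stand beside the counts of each list below. Atrn and Mgrn1, accessory factors of agouti signalling, changed by 0.27 or less on the log2 scale in every line.

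Creb1, the cAMP response element binding protein (ENSMUSG00000025958.14, chr1:64532645-64604548, plus strand), differed between all 3 untreated lines. Untreated libraries had 76.7 and 76.0 CPM in MelanA, 61.9 and 62.0 in B16F0 and 86.3 and 83.5 in B16F10, groups that did not overlap. B16F0 had 81.1% of the MelanA level (-0.30 ± 0.037, adjusted p = 2.29e-08) and B16F10 had 111% (0.15 ± 0.037, adjusted p = 0.000499). B16F10 had 1.37-fold the B16F0 level (0.45 ± 0.038, adjusted p = 9.66e-12). SX-682 raised it in B16F10 to 94.6 and 99.9 CPM, 1.15-fold (0.20 ± 0.037, adjusted p = 4.68e-05). Its values with SX-682 were 75.1 and 75.6 CPM in MelanA and 66.2 and 61.2 in B16F0, where the 95% intervals of the change were -0.09 to 0.06 and -0.04 to 0.12.

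Crem, which encodes activators and the cAMP-induced repressor ICER (ENSMUSG00000063889.16, minus strand of chromosome 18), had 6.82 and 6.68 CPM in untreated MelanA cells. The B16 lines had more, with 18.7 CPM in both B16F0 controls and 11.2 and 11.7 in B16F10 controls, or 2.77-fold and 1.70-fold the MelanA level (adjusted p = 4.15e-15 and 2.08e-08). SX-682 lowered it in B16F0 to 7.66 and 7.25 CPM, 40.0% of the untreated level (-1.32 ± 0.094, adjusted p = 5.68e-13). In B16F10 it was lowered to 5.54 and 6.86 CPM, or 54.0% (-0.89 ± 0.099, adjusted p = 6.63e-09). MelanA with SX-682 had 6.94 and 7.83 CPM, a change of 0.13 that did not pass (adjusted p = 0.284). With SX-682 the libraries of B16F0 and MelanA overlapped, and both B16F10 libraries lay below them. The fall in B16F0 was larger than that in B16F10 by 0.43 ± 0.14 (adjusted p = 0.0159), a call that was lost without B16F0 SX-682 replicate 2, B16F10 control replicate 1 or B16F10 SX-682 replicate 2, with adjusted p from 0.0548 to 0.201. Counts per gene do not separate ICER from the longer forms, and 472 exonic bases, 8.01%, overlap with Gm6225 on the opposite strand, which had 3 to 39 counts per library.

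Crtc2, a CREB coactivator held in the cytoplasm by SIK kinases (ENSMUSG00000027936.18, chr3:90254163-90264125, plus strand), was alike in untreated MelanA at 44.4 and 44.6 CPM and in B16F0 at 43.2 and 42.0 CPM, with a 95% interval of the difference of -0.16 to 0.04. Untreated B16F10 cells had less, at 30.6 and 33.6 CPM, or 72.2% of the MelanA level (-0.47 ± 0.050, adjusted p = 1.43e-09). SX-682 raised it in B16F10 to 42.4 and 40.2 CPM, 1.28-fold (0.36 ± 0.052, adjusted p = 7.15e-07). In B16F0 it rose to 45.5 and 50.2 CPM, 1.12-fold (0.16 ± 0.050, adjusted p = 0.00697), a call lost when control replicate 2 (adjusted p = 0.0711) or SX-682 replicate 2 (adjusted p = 0.183) was left out. MelanA with SX-682 had 47.9 and 48.4 CPM, both above its controls, a change of 0.11 with an adjusted p of 0.0502, which fell to 0.0397 with RLE scaling and 0.0159 in a separate fit of the line.

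Among the 14 other members of the CREB family, coactivators and SIK kinases, all tested, 6 rose and 4 fell in MelanA with SX-682, 8 rose and 1 fell in B16F0, and 8 rose and 2 fell in B16F10. Their median changes were 0.01, 0.21 and 0.29 on the log2 scale, and those of all genes over the floor lay between -0.00 and 0.01. Crtc3 rose in all 3 lines, by 0.30, 0.54 and 0.81 in MelanA, B16F0 and B16F10, and so did Sik2, by 0.34, 0.74 and 0.46, and Crebrf, a regulator of CREB3, by 1.14, 1.20 and 1.46. Crtc1 fell by 0.33 in MelanA and by 0.18 in B16F10, and changed by 0.04 in B16F0 (adjusted p = 0.649). Atf1, a close relative of Creb1, fell by 0.10 in MelanA and rose by 0.26 and 0.17 in B16F0 and B16F10. In untreated cells, 11 of the 14 were lower in B16F0 than in MelanA and 8 were lower in B16F10, against 40.6% and 40.8% of all genes tested.

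Pde4b, a cAMP phosphodiesterase (ENSMUSG00000028525.16, chr4:102087543-102607259, plus strand), rose in steps over the untreated lines. It had 16.2 and 15.7 CPM in MelanA, 26.6 and 27.2 in B16F0 and 32.6 and 33.6 in B16F10 controls, so that B16F0 had 1.68-fold (adjusted p = 9.43e-12) and B16F10 2.07-fold (adjusted p = 3.35e-15) the MelanA level. SX-682 lowered it in B16F10 to 15.9 and 18.9 CPM, 52.6% of the untreated level (-0.93 ± 0.066, adjusted p = 4.13e-13). B16F0 with SX-682 had 27.1 and 26.5 CPM, with an interval of the change of -0.13 to 0.13, and MelanA had 17.2 and 17.6 CPM, with an interval of -0.02 to 0.26. The change in B16F10 differed from that in B16F0 by -0.92 ± 0.092 (adjusted p = 3.64e-09) and from that in MelanA by -1.05 ± 0.093 (adjusted p = 2.38e-10).

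Pde4d, of the same family (ENSMUSG00000021699.17, chr13:108449948-109953461, plus strand), ran the other way over the untreated lines. Its controls had 17.2 and 17.5 CPM in MelanA, 11.9 and 12.8 in B16F0 and 7.26 and 6.77 in B16F10, or 71.2% and 40.5% of the MelanA level in the B16 lines (adjusted p = 5.56e-07 and 3.5e-15). It was the only member raised in all 3 lines. SX-682 took it to 23.3 and 24.1 CPM in MelanA, 1.37-fold (0.45 ± 0.068, adjusted p = 1.81e-06), and to 17.2 and 19.5 CPM in B16F0, 1.48-fold (0.57 ± 0.075, adjusted p = 1.87e-07). In B16F10 it reached 8.08 and 8.41 CPM, 1.18-fold (0.23 ± 0.089, adjusted p = 0.0289). This call in B16F10 was lost under DESeq2 (adjusted p = 0.0569), without the filter (adjusted p = 0.0742) and without control replicate 2 or either SX-682 library of B16F10, where adjusted p lay between 0.0611 and 0.214.

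Of the 14 other cAMP phosphodiesterases listed, 12 were tested. With SX-682, 5 rose and 2 fell in MelanA, 2 rose and 4 fell in B16F0, and 3 rose and 3 fell in B16F10, with median changes of 0.11, -0.09 and -0.02 over those above the floor. Pde4a rose by 0.91 in MelanA and 0.31 in B16F10 and changed by -0.03 in B16F0 (adjusted p = 0.793), and Pde4c was at most 0.107 CPM in every library. The lines differed in which enzymes they held. Pde11a, a dual cAMP and cGMP phosphodiesterase, had 143 and 150 CPM in B16F0 and 191 and 194 CPM in B16F10 controls against 0.0927 and 0.0881 CPM in MelanA. Pde3b had 26.7 and 26.4 CPM in MelanA controls and 0 in all B16 controls. Pde7b, named after its values were seen, had 108 and 109 CPM in B16F10 controls, 1.99 and 2.59 in B16F0 and 0.139 and 0.242 in MelanA.

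Between receptor and CREB, Gnas, the stimulatory G protein subunit, fell by 0.21 in MelanA with SX-682 and rose by 0.19 and 0.21 in B16F0 and B16F10. Of 15 G proteins and adenylyl cyclases tested, 3 rose and 8 fell in MelanA, 4 rose and 5 fell in B16F0, and 2 rose and 5 fell in B16F10, with medians of -0.21, 0.02 and -0.02 over those above the floor. The rises in MelanA include Adcy2 (adjusted p = 0.0453), which had 0 and 4 counts with SX-682 and 0 in both controls. That call lies under the floor and rests on 1 library. The cyclases present differed by line: Adcy1 had 20.8 and 20.3 CPM in MelanA controls and at most 0.0313 CPM in any B16 control, Adcy2 had 0 in MelanA controls and 3.26 to 4.19 CPM in the B16 controls, and Adcy5 had 5.08 and 5.49 CPM in B16F10 controls and at most 0.231 CPM in the other controls. Of 11 protein kinase A subunits, inhibitors and EPAC genes, 1 rose and 7 fell in MelanA, 2 rose and 7 fell in B16F0, and 1 rose and 5 fell in B16F10, with medians of -0.22, -0.31 and -0.22. Among all genes tested, 24.7%, 25.0% and 25.3% fell in MelanA, B16F0 and B16F10, and 23.4%, 25.1% and 25.5% rose. Prkar2a, a regulatory subunit of protein kinase A, fell in all 3 lines, by 0.49, 0.39 and 0.69.

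Ppargc1a, encoding PGC-1α (ENSMUSG00000029167.13, chr5:51454250-51567726, minus strand), fell in one melanoma line and rose in the other with SX-682. Untreated libraries had 28.2 and 28.9 CPM in MelanA, 61.8 and 60.9 in B16F0 and 85.02 and 81.03 in B16F10, so that the B16 lines had 2.15-fold and 2.91-fold the MelanA level (adjusted p = 1.62e-20 and 2.95e-24). SX-682 raised it in MelanA to 53.9 and 53.5 CPM, 1.88-fold (0.91 ± 0.041, adjusted p = 2.25e-17). It lowered it in B16F0 to 35.1 and 32.7 CPM, 55.4% of the untreated level (-0.85 ± 0.042, adjusted p = 1.59e-16). B16F10 again rose, to 103 and 101 CPM, 1.23-fold (0.30 ± 0.038, adjusted p = 8.46e-08). The change in B16F10 exceeded that in B16F0 by 1.15 ± 0.057 (adjusted p = 1.89e-15). With SX-682, the MelanA libraries lay above those of B16F0, while the untreated ones lay below.

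Ppargc1b, encoding PGC-1β (ENSMUSG00000033871.14, minus strand of chromosome 18), was highest in B16F10 among the untreated lines, with 8.18 and 8.10 CPM in MelanA, 7.52 and 8.10 in B16F0 and 10.005 and 10.2 in B16F10 controls. B16F10 had 1.24-fold the MelanA level (adjusted p = 0.00244) and 1.30-fold the B16F0 level (0.37 ± 0.091, adjusted p = 0.0007). The libraries of B16F0 and MelanA overlapped, with an interval of the difference of -0.25 to 0.12. SX-682 raised it in MelanA to 13.3 and 11.9 CPM, 1.55-fold (0.63 ± 0.086, adjusted p = 3.42e-07). In B16F0 it had 6.74 and 6.50 CPM with SX-682, 84.96% of the untreated level (-0.24 ± 0.097, adjusted p = 0.0441), a call lost under DESeq2 (adjusted p = 0.103), RLE scaling (0.0579), no filter (0.0987), a separate fit (0.0518) and with the replicate number as a block (0.0581). It was also lost without either SX-682 library of MelanA or of B16F0, without B16F0 control replicate 2 and without B16F10 control replicate 2, with adjusted p between 0.0504 and 0.231. B16F10 with SX-682 had 8.87 and 9.61 CPM, with a 95% interval of the change of -0.32 to 0.06.

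Of the other 12 genes of the PGC-1 list, 11 were tested, and 3 rose and 2 fell in MelanA with SX-682, 2 rose and 4 fell in B16F0, and 2 rose and 5 fell in B16F10, with medians of 0.14, -0.15 and -0.13. Pprc1, the remaining PGC-1 relative, fell in all 3 lines, by 0.15, 0.47 and 0.68. Tfam, the mitochondrial transcription factor, fell by 0.52 in B16F0 and 0.26 in B16F10 and changed by 0.08 in MelanA (adjusted p = 0.0716). Nrip1, a corepressor that opposes PGC-1 coactivators, rose by 0.69 and 0.48 in B16F0 and B16F10 and changed by -0.10 in MelanA (adjusted p = 0.187).

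Nr4a1, an immediate early nuclear receptor induced through CREB (ENSMUSG00000023034.7, chr15:101254269-101274795, plus strand), was highest in MelanA, at 180.0 and 188 CPM untreated. B16F0 had 58.5 and 57.9 CPM and B16F10 had 84.4 and 86.0 CPM, or 31.6% and 46.3% of the MelanA level (-1.66 ± 0.032 and -1.11 ± 0.031, adjusted p = 1.04e-27 and 1.64e-23). SX-682 widened this gap, since it raised MelanA to 299.7 and 305 CPM, 1.64-fold (0.72 ± 0.029, adjusted p = 2.09e-18). B16F10 fell to 41.3 and 40.4 CPM, 47.9% of the untreated level (-1.06 ± 0.036, adjusted p = 1.02e-20). In B16F0 it fell to 49.95 and 52.5 CPM, 87.9% (-0.19 ± 0.036, adjusted p = 5.55e-05). The untreated order of the melanoma lines, B16F10 above B16F0, was reversed in the libraries with SX-682. Its promoter, printed above, held the 4 copies of TGACG, and no promoter activity was measured here.

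The early response genes that CREB is known to induce were split in the same comparisons. Of 10 tested, 8 rose in MelanA with SX-682 and Dusp1 and Cited1 changed by 0.01 and 0.09 without passing, 4 rose and 4 fell in B16F0, and 4 rose and 5 fell in B16F10, and their median changes were 0.71, 0.37 and -0.22. The shares of all genes were 23.4% raised in MelanA, 25.1% raised and 25.0% lowered in B16F0, and 25.5% and 25.3% in B16F10. Nr4a3, a relative of Nr4a1, rose by 2.29 in MelanA, from 7.20 and 5.99 CPM to 32.4 and 31.8 CPM, and fell by 0.15 in B16F0 and 0.75 in B16F10. Egr1 rose by 1.36 in MelanA and fell by 1.76 and 2.44 in B16F0 and B16F10. The B16 controls held far less Egr1, with 3.62 and 3.58 CPM in B16F0 and 16.1 and 17.5 in B16F10, against 243 and 254 CPM in MelanA controls. Nr4a2 rose by 0.43 in MelanA and fell by 0.87 in B16F0, and changed by -0.15 in B16F10 (adjusted p = 0.513). Junb and Per1 rose in all 3 lines, Junb by 1.42, 1.01 and 1.25 and Per1 by 0.78, 1.67 and 1.02. Of 3 leukocyte markers, 1 rose and 1 fell in MelanA with SX-682. Cd68 rose from 15.9 and 16.1 to 43.9 and 45.3 CPM, Lyz2 fell from 6.93 and 7.07 to 4.73 and 4.38 CPM, and Ptprc, the defining marker, was at most 0.255 CPM in any library. Their sum went from 23.1 to 23.2 CPM in MelanA controls to 48.8 to 49.8 CPM, and its part in the rises in MelanA was not tested.

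Like Mc1r, the pigment genes fell with SX-682 in both melanoma lines. All 10 genes of the MITF and pigment list were higher in untreated B16F0 and B16F10 than in MelanA, by medians of 7.18 and 6.33 on the log2 scale beside 0.02 and 0.01 for all genes over the floor. With SX-682, 10 of 10 fell in B16F0 and in B16F10, and 7 fell and 1 rose in MelanA, with medians of -0.49, -0.88 and -0.38. Mitf, the master regulator of melanocytes, had 103 and 101 CPM in MelanA, 371 and 362 in B16F0 and 420.3 in both B16F10 controls. It fell by 0.36 in MelanA, 2.11 in B16F0 and 1.14 in B16F10. Tyr changed by -1.55, -0.83 and -1.92 in the same order. Slc24a5, a melanosome exchanger, changed by -1.88 in MelanA, -0.82 in B16F0 and -0.88 in B16F10. MelanA controls held only 0.533 and 0.583 CPM of it, against 270 and 267 CPM in B16F0 and 98.8 and 98.6 CPM in B16F10 controls. The summed melanocytic markers were 15770 to 15960 CPM in B16F0 and 14950 to 15190 CPM in B16F10 with SX-682, below the controls of both lines, with 7 of 8 markers lowered in each. Mitf, Tyr, Tyrp1, Dct, Pmel and Mlana are in both lists, so this sum largely repeats the falls of the pigment genes. In MelanA with SX-682 the sum was 1347 to 1355 CPM, within the range of the controls, with 3 markers raised and 4 lowered. Whether these shifts and that of Mc1r in the B16 lines have a common source was not tested.

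**Figure D4:**
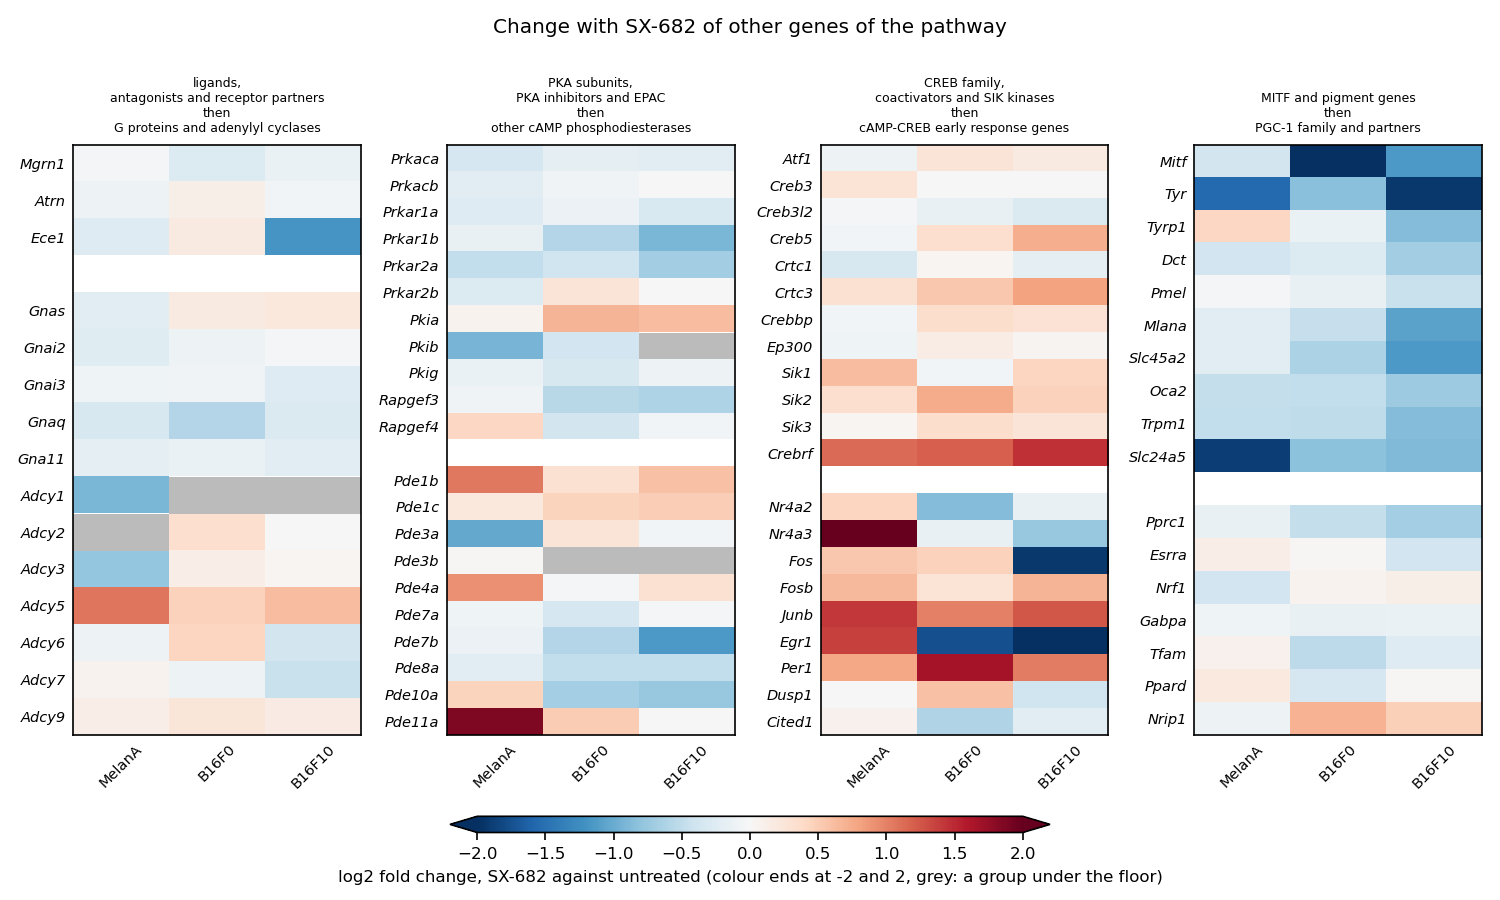
Log2 fold change with SX-682 in each line, red for higher and blue for lower, for the 74 genes of the 8 lists with a mean of at least 1 on the log2 CPM scale, with the lists stacked in the order of the titles. Pigment genes are blue in both B16 lines, and of the early response genes Nr4a3 and Egr1 are red in MelanA and blue in both B16 lines.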

How the data were processed

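RNA of cell cultures was sequenced in 12 libraries by the authors on an Illumina platform, and the deposited table holds raw counts of reads per gene for 34513 genes without normalization. The submitters' processing notes name cutadapt, STAR and DESeq2 and build mm10, with no versions, and the counting program and its use of strand are not given in the sources used here. Coordinates of the members equal those of GENCODE M21, and exon lengths are those of the table.

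Groups and replicate numbers come from the labels. The counts of all 12 libraries were fitted together in R 4.3.3 with edgeR 4.0.16 (TMM scaling, expression filter, quasi-likelihood test, no block), with Benjamini-Hochberg adjustment over all 18338 genes tested at a threshold of 0.05. CPM use TMM-scaled library sizes, and intervals cover 95%. Alternatives were DESeq2 1.42.0, RLE scaling, leaving out the filter, requiring 10 counts in every library, separate fits of the libraries compared, the replicate number as a block, and each library left out. Count intervals and floors cover counting error only.

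The members and the gene lists were chosen with earlier results of these data known. Of the other pathway genes, 14 were always to be named, and from each list up to 3 with a mean log2 CPM of at least 1 and the largest mean absolute change over the lines. Asip and Pde2a were not analysed here. Promoter windows of 300 bases, 250 before and 50 after the start, came from RefSeq on GRCm38.p6 and were searched on both strands for 7 members. Windows on chromosome 18 were left out, so Crem and Ppargc1b were not searched, and no window was available for Crtc2.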

Additional observations from a re-analysis of the deposited data

Results flagged for a closer look

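The change with SX-682 differed among the 3 lines, by an F-test of the difference itself in edgeR's quasi-likelihood model, for 34 of the 42 tested genes that the naming rule gives, among them 8 of the 9 members. Since that rule takes some of the other genes by the size of their change, this count is a description and is not set against that of all genes. Each value below is the range of the log2 fold change over the 3 lines, the highest minus the lowest. Among the members it was 1.78 for Nr4a1, 1.76 for Ppargc1a, 1.45 for Crem, 1.05 for Pde4b, 0.87 for Ppargc1b, 0.79 for Mc1r, 0.25 for Crtc2 and 0.21 for Creb1. Of these, Nr4a1, Ppargc1a and Ppargc1b rose in MelanA and fell in B16F0, and Nr4a1 fell in B16F10 as well, while Mc1r and Pde4b changed most in B16F10. Among the early response genes the range was 3.80 for Egr1, 3.04 for Nr4a3, 1.30 for Nr4a2, 0.89 for Per1 and 0.41 for Junb. Egr1 and Nr4a3, like Nr4a1, rose in MelanA and fell in both B16 lines. Among pigment genes it was 1.75 for Mitf, 1.09 for Tyr and 1.06 for Slc24a5, all of which fell in every line. That of Slc24a5 includes its fall in MelanA, where controls held only 0.533 and 0.583 CPM. For phosphodiesterases it was 1.88 for Pde11a, 0.94 for Pde4a and 0.76 for Pde1b. That of Pde11a was set by a change of 1.87 in MelanA, from 0.0927 and 0.0881 CPM to 0.252 and 0.413 CPM. In B16F0 and B16F10, which held far more of it, Pde11a changed by 0.50 and -0.01. The CREB family, its coactivators and SIK kinases had 0.51 for Crtc3, 0.40 for Sik2, 0.37 for Atf1, 0.36 for Crtc1 and 0.32 for Crebrf. For genes of the PGC-1 list the range was 0.80 for Nrip1, 0.60 for Tfam and 0.53 for Pprc1. Those of the receptors' ligands and partners had 1.35 for Ece1, 0.78 for Pomc, 0.25 for Mgrn1 and 0.23 for Atrn, and between receptor and CREB it was 0.76 for Prkar1b, 0.42 for Gnas and 0.30 for Prkar2a. The range of Ece1 lay between 0.17 in B16F0 and -1.18 in B16F10, whose controls held only 0.364 to 0.610 CPM. In MelanA, where Ece1 was abundant, it changed by -0.25. With 2 libraries per group no test of single outlying libraries was made.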

How the results depend on the processing

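The 81 differences and changes of the 9 tested members were recomputed under the other settings, which gave 1404 values. None reversed, 1351 kept their side of the threshold, 41 lost a call and 12 gained one. The calls lost were those of Creb1, Crem, Crtc2 and Pde4d between the changes in B16F10 and B16F0, Crtc2 between B16F10 and MelanA, Crtc2 and Ppargc1b in B16F0 and Pde4d in B16F10, and the gains were of Crtc2. With 1 library left out, the number of members raised in B16F0 ran from 1 to 2, and the number whose change differed between B16F10 and B16F0 from 5 to 8. The lower values came without B16F0 control replicate 2 or SX-682 replicate 2 for the former, and without B16F0 control replicate 1, B16F0 SX-682 replicate 2 or B16F10 control replicate 1 for the latter. No other count of members moved by over 1.5 times under any setting.

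The labels number the replicates alike within a line, but deviations of same-numbered libraries did not correlate (-0.03, -0.01 and -0.01 in MelanA, B16F0 and B16F10 over 9361 genes), so the numbers were not taken to pair samples. In a fit with this number as the replicate block, members raised and lowered numbered 4 and 0 in MelanA, 2 and 4 in B16F0 and 4 and 4 in B16F10, and the change differed among the lines for 9 members, Pde4d included. RLE in place of TMM scaling moved the members by at most 0.0333 on the log2 scale. Depth limits Ednrb, which had at most 10 counts in a library. Where a library is left out, its lone partner is assumed to vary like the other groups. Apart from the calls lost by leaving out libraries, the cause was not tested.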
